A study of Arabidopsis thaliana with 6 samples.

Results

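CHL (AT3G47860, the chloroplastic lipocalin) and TIL (AT5G58070, the temperature-induced lipocalin) were found by their gene symbols, and each was represented by its probe set with the highest mean. They are 2 of the 13356 genes that could be named on the array, and the only measured genes with lipocalin in their annotated name. Each has 1 probe set. RNA came from leaves of Arabidopsis plants aged 15 days, grown without treatment in 16 h of light and 8 h of dark at 21 °C. It was labelled with biotin after oligo(dT) priming and hybridised to single-colour Affymetrix ATH1 arrays, with 3 arrays of the chr11-1 chr17-1 double mutant and 3 of wild type Col-0. CHR11 and CHR17 encode ISWI-type ATPases, which slide and space nucleosomes. The study compared leaf transcript levels between the mutant and wild type. The sources used here do not give the kind and position of the mutations, the number of independent lines or whether leaves were pooled. Nothing says that the arrays of a genotype came from separate plants, so p-values cover no more than the variation among these 6 arrays, part or all of which could be technical.

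Lipocalins are small proteins that fold into a barrel and hold hydrophobic molecules in its cup. Plants have few of them. CHL lies in the thylakoid lumen of the chloroplast, where it protects membrane lipids from peroxidation under drought and strong light and is needed for qH, a slowly reversible form of energy dissipation in the antennae. TIL sits at the plasma membrane, is induced by heat and by cold in wild type, and is needed for basal heat tolerance. Plants that lack both are more sensitive to oxidative stress than plants that lack either one.

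The values are log2 array signals, with medians of 4.74 to 4.78 over the arrays. Arrays of one genotype had a Pearson's r of 0.993 to 0.997 with each other, and arrays of different genotypes 0.970 to 0.973, computed over probe sets, which do not count as replicates. Of the leaf mesophyll markers LHCB4.1, LHCB4.2 and RCA were measured under a name, 3 of 21 listed, and their summed log2 level was 15.11 to 15.17 in mutant arrays and 15.10 to 15.14 in wild-type arrays. The sum hides differences in both directions: LHCB4.2 rose by 0.54 (limma adjusted p = 0.000747), while RCA had -0.23 (adjusted p = 0.0694), with all mutant arrays below all wild-type arrays, and LHCB4.1 had -0.09. RCA passed after quantile normalization (-0.27, adjusted p = 0.0454) and with a trended robust prior (adjusted p = 0.00317). The guard cell marker FMA read 6.05 to 6.45 in mutant arrays and 6.25 to 6.35 in wild-type arrays. The root markers EXPA7 and EXPA18 summed to 5.06 to 5.22 in mutant arrays and 5.12 to 5.17 in wild-type arrays. The flower markers UFO and AMS summed to 4.75 to 4.96 in mutant arrays and 4.69 to 4.95 in wild-type arrays. Taken singly, each of these root and flower genes was below the array median on every array. The listed epidermal, vascular and seed markers were not analysed here. CHR17 had log2 levels of 5.33, 4.91 and 5.11 in mutant arrays against 4.57, 4.92 and 4.84 in wild-type arrays, a difference of 0.34 (SE 0.13) that did not pass limma (Benjamini-Hochberg adjusted p = 0.0832; without mutant replicate 2 it was 0.44 with an adjusted p of 0.0406). CHR11 has no named probe set and was not analysed here. The mean CHR17 signal was not lower in the mutant, and the kind and position of its mutation are not given. The labels could therefore not be checked by the mutated genes.

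The 2 lipocalin genes stood on opposite sides of wild type. CHL signal was far lower in the mutant leaves than in wild type, and TIL signal was higher. The genes were chosen by their log2 differences in this mutant against wild-type contrast as well as by their names, so their values are a description with no test.

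CHL, the thylakoid lumen lipocalin, had log2 levels of 7.05, 6.85 and 6.87 in the mutant arrays, against 10.85, 10.94 and 10.71 in the wild-type arrays. The 3 mutant arrays lay far below the 3 wild-type arrays, with a gap of 3.66 between the nearest arrays of the genotypes. The group means were 6.92 ± 0.11 in the mutant and 10.83 ± 0.12 in wild type (SD, n = 3 each), a log2 difference of -3.91, or a 15.1-fold lower signal. Over the 9 pairs of a mutant and a wild-type array, the signal was 12.6-fold to 17.1-fold lower, so every pair had the same direction. Within its array, CHL moved to percentiles 73.8 to 74.6 of all probe sets in the mutant, against 97.0 to 97.6 in wild type. It stayed 2.11 to 2.27 above the array median in the mutant and was 5.95 to 6.17 above it in wild type, on the log2 scale. A percentile is of array signal, which also depends on the probes. Whether fewer cells that express a gene or less RNA per cell gives a lower signal cannot be told apart in whole leaves.

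TIL, the plasma membrane lipocalin, had log2 levels of 10.41, 10.66 and 10.71 in the mutant arrays, against 9.84, 9.61 and 9.43 in the wild-type arrays. All mutant arrays lay above all wild-type arrays, with a gap of 0.57 between the nearest ones. The means were 10.59 ± 0.16 in the mutant and 9.63 ± 0.21 in wild type (SD, n = 3 each), a log2 difference of 0.96, or a 1.95-fold higher signal. The pairs of a mutant and a wild-type array ran from 1.48-fold to 2.42-fold higher. TIL was a well-measured transcript in both genotypes, at percentiles 96.3 to 97.1 in mutant arrays and 92.8 to 94.6 in wild-type arrays. Mutant arrays all below the wild-type arrays, as for CHL, were found in 20.1% of all probe sets tested, and mutant arrays all above them, as for TIL, in 19.4%, which makes 39.5% with no overlap.

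**Figure D1:**
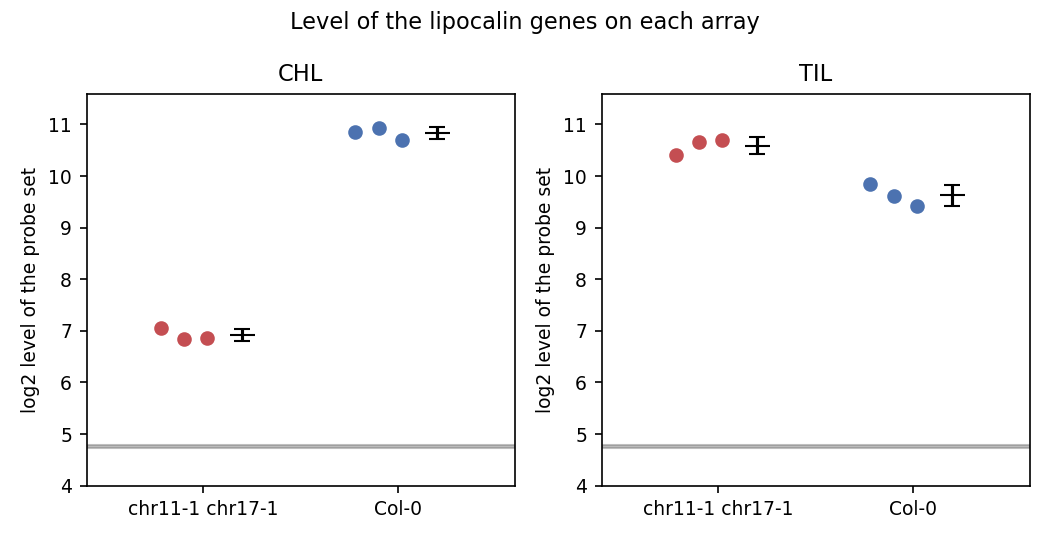
Log2 level of the CHL and TIL probe sets on each array. Points are arrays (mutant red, Col-0 blue), black bars are the mean ± SD of 3 arrays, and the grey band holds the array medians (4.74 to 4.78); the mutant arrays of CHL lie between 6.85 and 7.05, below all wild-type arrays, and those of TIL between 10.41 and 10.71, above all wild-type arrays.

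The sizes of the differences were unequal. Of 22746 probe sets, 4 had a difference as low as that of CHL or lower, CHL included, and 3 of these are named genes. A difference as high as that of TIL or higher was found in 665 probe sets, 2.92% of those tested, and in 332 named genes. The CHL difference was 4.88 lower than that of TIL on the log2 scale, a 29.3-fold change of one signal relative to the other. That value compares each gene with itself across genotypes, and the level of one probe set was not set against that of the other. The median difference over all probe sets was -0.0028.

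**Figure D2:**
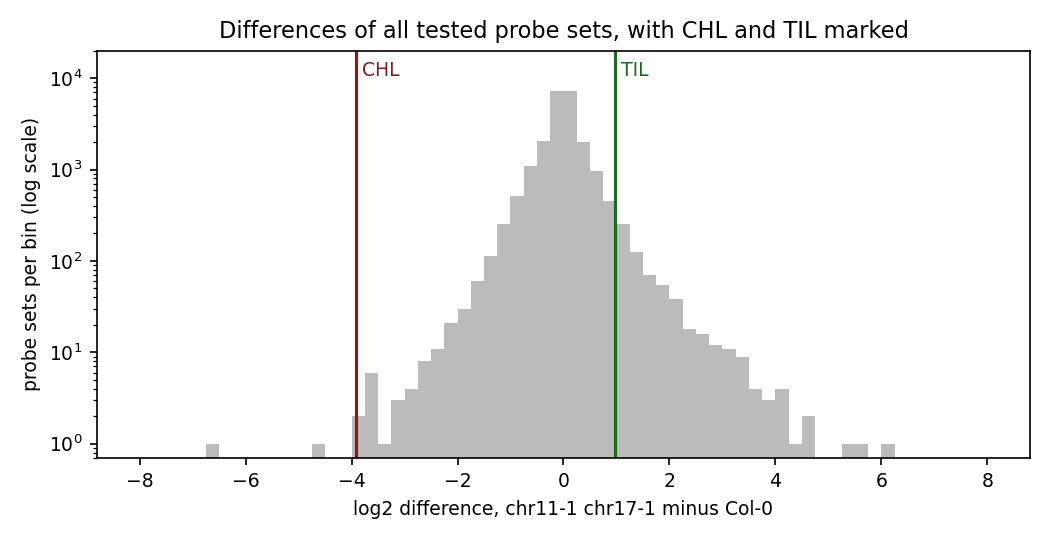
Number of probe sets (log scale) by log2 difference, mutant minus wild type, over the 22746 tested probe sets, in bins of equal width. The line for CHL at -3.91 stands in the far left tail, with 4 probe sets at or below it, and the line for TIL at 0.96 stands in the right flank, with 665 at or above it.

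Mutant replicate 1 was the mutant array nearest to wild type for both genes. Relative to the wild-type mean, CHL was at -3.78 on it, against -3.99 and -3.97 on mutant replicates 2 and 3. TIL was at 0.78 on mutant replicate 1 and at 1.03 and 1.08 on mutant replicates 2 and 3. The 25S ribosomal RNA control of the array also set that array apart, with a log2 level of 8.90, against 10.85 on both other mutant arrays and 10.32 to 10.49 on the wild-type arrays. Without mutant replicate 1 the differences were -3.98 for CHL and 1.05 for TIL. The 64 control probe sets, of which 56 were higher in the mutant, had a median log2 difference of 0.22, and their part in the lipocalin values was not tested.

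The chromosomal surroundings of the genes were read from the order of annotated genes in the TAIR10.1 gene table. CHL lies on the same chromosome as CHR11, with 4863 annotated genes between them, and TIL on the same chromosome as CHR17, with 5054 between them. Of the 5 genes on each side of CHL, 4 of 10 were measured under a name, and their differences lay between -0.15 and 0.33. The nearest measured neighbours, AT3G47850 (0.23, SE 0.15) and AT3G47910 (-0.15, SE 0.09), did not pass limma, with adjusted p of 0.320 and 0.293. AT3G47836 had levels of 9.16, 9.32 and 9.40 in mutant arrays against 8.92, 8.99 and 8.99 in wild-type arrays and rose by 0.33 (SE 0.09, limma adjusted p = 0.0217). AT3G47840 had -0.14. None of these 4 genes had a difference near the size of that of CHL. AT3G47840 and AT3G47910 were read below the array medians, with wild-type means of 4.03 and 3.78, and AT3G47850 had 5.64. Such levels leave little room for a fall like that of CHL, so for these genes its absence says little.

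Around TIL 8 of 10 genes were measured, and 2 rose and 3 fell. Its direct neighbour YKT61, which encodes a SNARE protein of membrane fusion, had levels of 10.12, 9.96 and 9.92 in mutant arrays against 9.32, 9.57 and 9.59 in wild-type arrays. It rose by 0.51 (SE 0.11, limma adjusted p = 0.00431). The neighbour on the other side, RR18, a response regulator of cytokinin signalling, had -0.07 (SE 0.11, adjusted p = 0.729) at levels below the array medians. AT5G58110 rose by 0.38, while AT5G58030, AT5G58090 and AT5G58120 had changes of -0.33, -0.52 and -0.47. The arrays of AT5G58090 overlapped between genotypes. Over both surroundings 6 of 12 measured neighbours passed, where 28.6% of all probe sets did (14.0% higher and 14.7% lower). The count was 2 when mutant replicate 2, mutant replicate 3 or wild-type replicate 2 was left out, 1 without wild-type replicate 1, and 3 without wild-type replicate 3. YKT61 was the single neighbour that passed in every fit with 1 array left out.

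**Figure D3:**
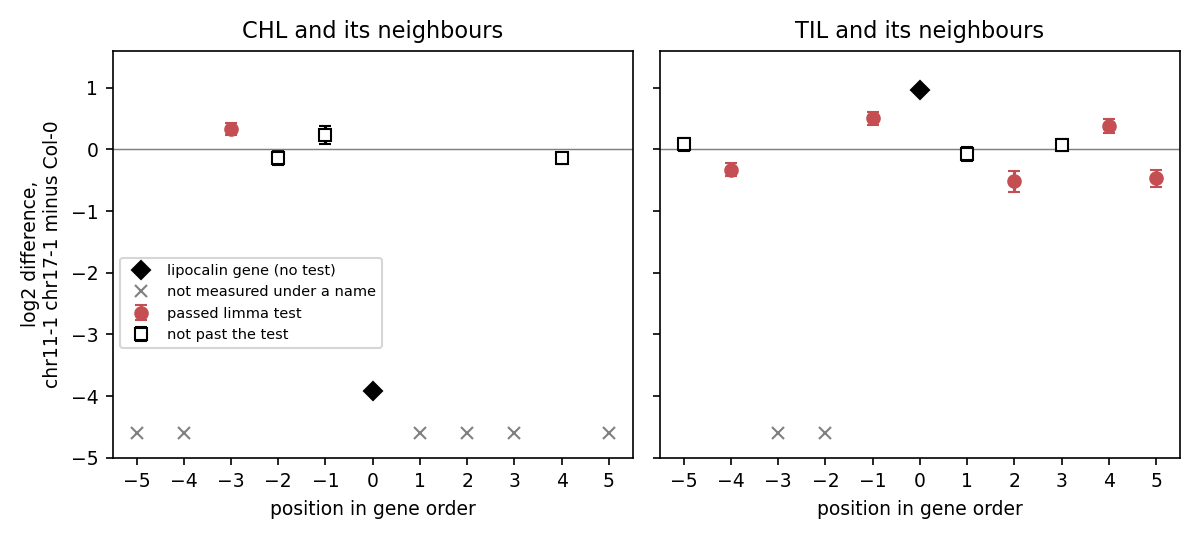
Log2 difference, mutant minus wild type, of the 5 annotated genes on each side of CHL and of TIL, by position in gene order. Error bars are standard errors of limma. Filled circles passed the test and open squares did not. Crosses at the bottom are genes not measured under a name, and the black diamonds are the lipocalin genes. The measured neighbours of CHL lie between -0.15 and 0.33, far from CHL at -3.91, but AT3G47840 and AT3G47910 were read below the array medians.

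A list was drawn up for antioxidant genes of the chloroplast, the compartment of CHL. It holds peroxidases, the reductases that supply them, a chaperone and genes of ascorbate synthesis. Whether the product of each member acts in the chloroplast was not checked. Of the 28 entries of the list 6 were measured under a name, and of these 4 fell, 1 rose and 1 did not pass. That is a share of 83.3% past the test, where 28.6% of all probe sets passed. A share of 6 genes is imprecise, it was not tested against that of all probe sets, and the unread entries could differ. The list median was -0.53. SAPX, the stromal ascorbate peroxidase that destroys hydrogen peroxide, had levels of 8.31, 8.25 and 8.33 in mutant arrays against 9.03, 8.94 and 8.88 in wild-type arrays, and fell by 0.65 (SE 0.09, limma adjusted p = 0.000270). NTRC, a thioredoxin reductase that feeds electrons to peroxiredoxins, had 8.50, 8.45 and 8.21 in mutant arrays against 8.92, 9.12 and 9.09 in wild-type arrays, and fell by 0.66 (SE 0.11, adjusted p = 0.000958). For both genes all mutant arrays lay below all wild-type arrays.

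CCS, the chaperone that loads copper into superoxide dismutases, had 8.32, 8.33 and 8.43 in mutant arrays against 9.14, 9.14 and 8.86 in wild-type arrays, and fell by 0.69 (SE 0.10, limma adjusted p = 0.000548). GR, the glutathione reductase of plastids and mitochondria, fell by 0.41 (SE 0.10, adjusted p = 0.0101). TAPX, the ascorbate peroxidase bound to the thylakoid, had -0.19 (SE 0.12, adjusted p = 0.312), and its arrays overlapped. The member that rose was VTC4, an enzyme of ascorbate synthesis, with 9.74, 9.07 and 9.30 in mutant arrays against 8.43, 8.82 and 8.56 in wild-type arrays. Its difference was 0.77 (SE 0.16, adjusted p = 0.00510). GR1, the glutathione reductase outside the plastid, is not on the list and was chosen after its values were seen. It had 9.16, 9.20 and 9.13 in mutant arrays against 8.62, 8.51 and 8.42 in wild-type arrays, and rose by 0.65 (SE 0.09, limma adjusted p = 0.000359).

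The lipid peroxidation list holds lipoxygenases, lipases and enzymes acting on lipid peroxides and on the carbonyls they release. Of its 25 entries, 4 were measured under a name. Of these, 1 rose, 1 fell and 2 did not pass, with a median of -0.0030. Over all probe sets 14.0% were called higher and 14.7% lower. ALDH7B4, an aldehyde dehydrogenase that clears reactive aldehydes, had 8.22, 8.27 and 8.42 in mutant arrays against 6.89, 7.26 and 7.11 in wild-type arrays. It rose 2.33-fold (log2 1.22, SE 0.11, limma adjusted p = 2.20e-05). AOR, the chloroplast enzyme that reduces reactive carbonyls, had 10.23, 10.09 and 9.98 in mutant arrays against 10.44, 10.46 and 10.53 in wild-type arrays, and fell by 0.38 (SE 0.09, adjusted p = 0.0118). AER, an alkenal reductase, had 0.13, and the lipase gene DGL had -0.14 at levels below the array medians. Of the tocopherol and carotenoid list, 1 gene was measured: LYC, the lycopene cyclase, had -0.17 (adjusted p = 0.293).

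Few photoprotection genes could be read. PIFI, a factor of the chloroplast NDH pathway, fell by 0.36 (SE 0.09, limma adjusted p = 0.0103), with 11.42, 11.28 and 11.44 in mutant arrays against 11.71, 11.74 and 11.79 in wild-type arrays. PGRL1B, of cyclic electron flow, had 0.00024 (SE 0.10), with overlapping arrays. Of the 2 measured members 1 fell, against 14.7% of all probe sets, and the list median was -0.18. The regulators of qH and the xanthophyll cycle enzymes with a lipocalin-like fold have no named probe set and were not analysed here. Of the singlet oxygen list, EX1, a thylakoid protein needed for singlet oxygen signalling, had -0.27 (SE 0.11, adjusted p = 0.109). It passed without mutant replicate 1 (-0.35, adjusted p = 0.0450). ChiC, a class V chitinase gene that matched an entry of that list, had -0.02. By limma 0 of these 2 passed, and 1 had an unadjusted p below 0.05.

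Genes named for the thylakoid or plastid were compared with CHL as well, in a list made after values had been seen. Of 9 such genes other than CHL, 3 fell, 0 rose and 6 did not pass, with a median of -0.18. That is 33.3% past the test, all of them lower, where 28.6% of all probe sets passed and 14.7% were called lower. A share of 9 genes is imprecise and was not tested against that of all probe sets. GPDHp, a plastid glycerol-3-phosphate dehydrogenase, fell by 0.81 (SE 0.17, limma adjusted p = 0.00486), MDH, a plastid malate dehydrogenase, by 0.47 (SE 0.09, adjusted p = 0.00278), and TAAC, a thylakoid ATP/ADP carrier, by 0.46 (SE 0.11, adjusted p = 0.00920). The thylakoid curvature genes CURT1A (AT4G01150), CURT1C (AT1G52220) and CURT1D (AT4G38100) had -0.03, 0.02 and -0.16. TROL, which tethers ferredoxin reductase to the thylakoid, had 0.03. TAPX did not pass and is also on the antioxidant list, so these lists share a gene. The lowest value of the list, -0.81, was far from the -3.91 of CHL.

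For TIL, the related lists are those of heat and cold. None of 3 measured heat response genes passed limma, where 28.6% of all probe sets did, and 1 had an unadjusted p below 0.05. So few genes cannot show a share below that of all probe sets. HSA32, a heat-stress-associated protein, had levels of 4.85, 5.13 and 4.96 in mutant arrays against 5.01, 4.94 and 4.91 in wild-type arrays, a difference of 0.02. ATHSP22.0, a small heat shock protein, had 0.02, and AT5G48570 (ROF2, a co-chaperone) had -0.26 (SE 0.12, adjusted p = 0.131). HSA32 was read close to the array medians in both genotypes, and the last 2 below them, so these genes carry little signal. The list median was 0.02. TIL was higher in the same arrays by 0.96.

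Of 28 listed cold response genes 4 were measured under a name. All 4 fell, where 14.7% of all probe sets did, with a median of -2.12. COR15A, which encodes a chloroplast stroma protein that guards membranes during freezing, had levels of 8.32, 7.96 and 8.01 in mutant arrays against 10.69, 10.81 and 10.61 in wild-type arrays. COR15B, its close relative, had 7.66, 7.26 and 6.56 in mutant arrays against 10.74, 10.81 and 10.81 in wild-type arrays. COR47 and LTI30, both dehydrins, had differences of -1.64 and -0.46. The largest limma adjusted p of the 4 was 0.00339, for LTI30. This list was already known to be lower in these arrays, so its direction is no independent support.

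**Figure D4:**
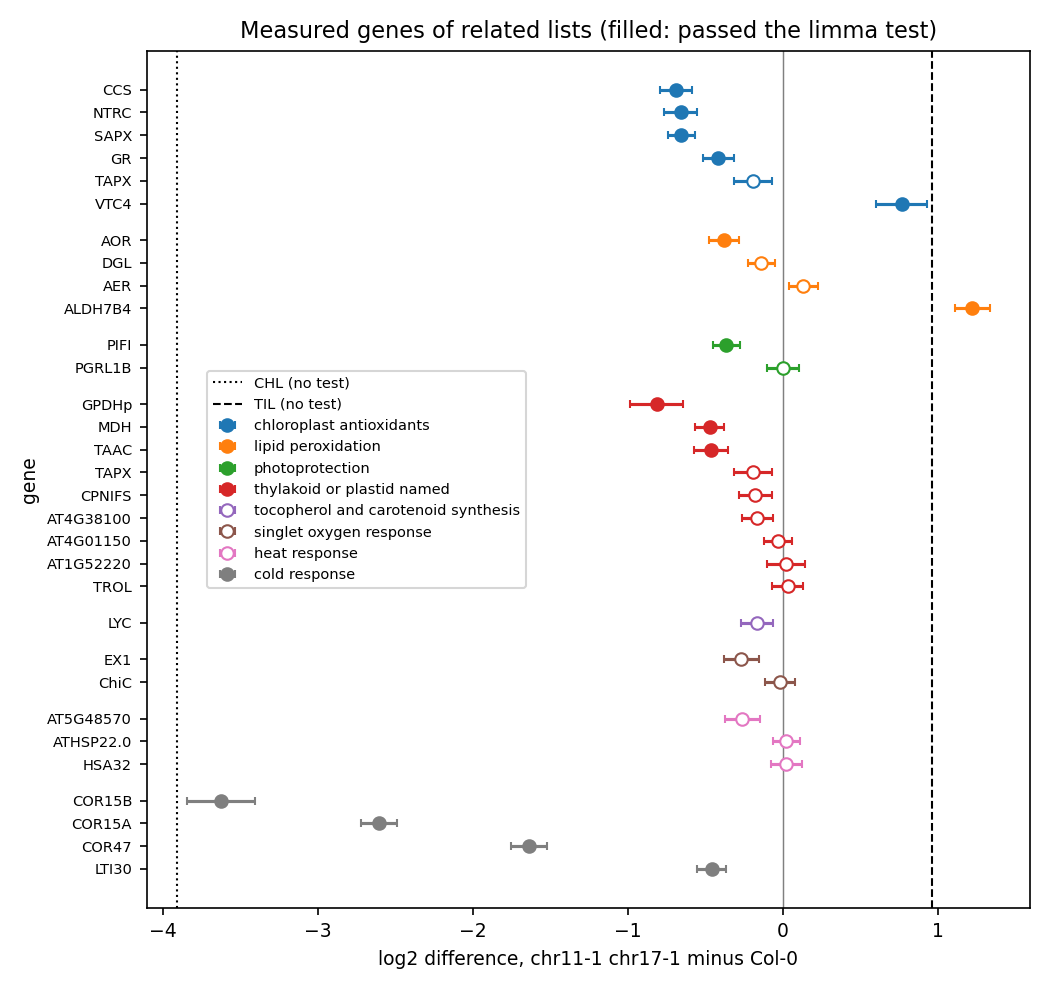
Log2 difference, mutant minus wild type, of each measured gene of the lists, coloured by list, with limma standard errors. TAPX is drawn both with the antioxidants and with the genes named for the thylakoid or plastid. Filled points passed the test, open ones did not; the dotted line marks CHL (-3.91) and the dashed line TIL (0.96), and ALDH7B4 (1.22) is the single listed gene to the right of TIL while COR15B (-3.63) is the nearest to CHL.

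The named genes most like each lipocalin were found by the root-mean-square distance between profiles over the 6 arrays, each profile centred on its own mean. For CHL these were AT2G43590, a chitinase family gene (distance 0.23 on the log2 scale), COR15B (0.32), AT1G73600, a phosphoethanolamine methyltransferase family gene (0.36), AT1G31690, a copper amine oxidase gene (0.41), and AT5G50100 (0.44). Pearson's r with CHL over the 6 arrays was 0.987 to 0.998, which reflects mainly the shared difference between genotypes. AT2G43590 had 5.24, 5.33 and 4.88 in mutant arrays against 9.05, 8.69 and 8.61 in wild-type arrays. COR15B spread more than CHL within the mutant, with an SD of 0.56 against 0.11 for CHL.

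For TIL the nearest profiles lay at distances of 0.06 to 0.08. They were those of AT1G15250 (log2 difference 0.91), the thionin gene THI2.2 (1.07), AT5G42200 (1.08), AT4G22490 (1.03) and AT1G19200 (1.08), with r of 0.990 to 0.997 over 6 arrays. THI2.2 had levels of 7.96, 8.09 and 8.19 in mutant arrays against 7.23, 6.96 and 6.84 in wild-type arrays. In all 5 genes, as in TIL, mutant replicate 1 had the lowest level of the mutant arrays and wild-type replicate 1 the highest of the wild-type arrays. The profiles were picked as the nearest of 13513 probe sets with 1 gene, so close fits are a result of the search. In 665 probe sets the difference was at least as high as for TIL, but in 4 at least as low as for CHL. The distances found for TIL and for CHL are therefore not comparable.

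**Figure D5:**
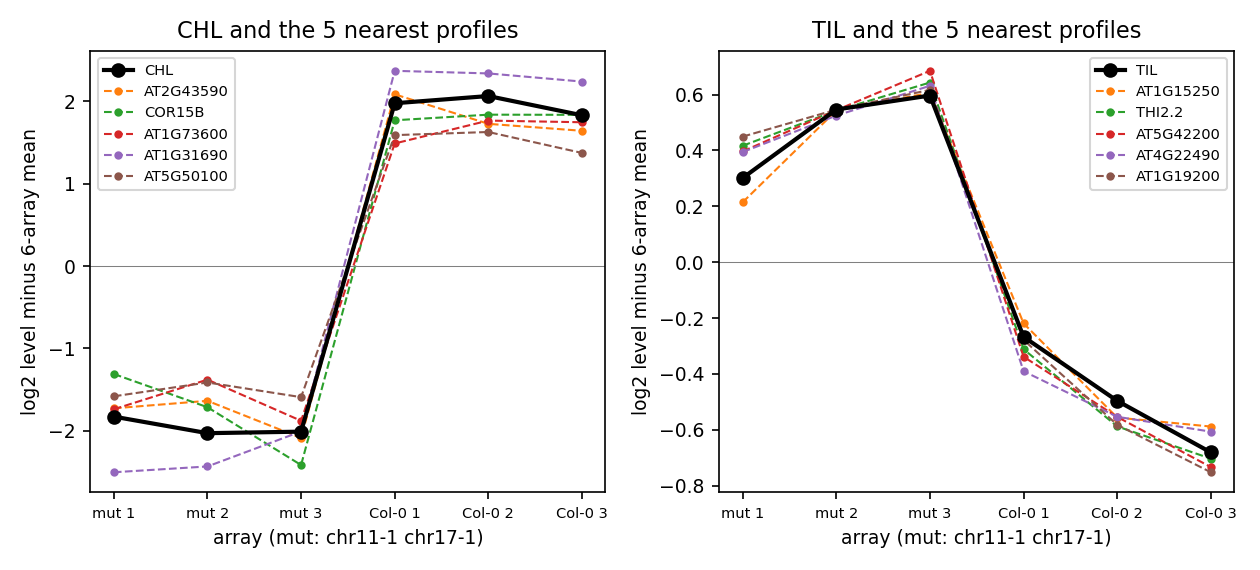
Log2 level minus the mean of the 6 arrays for CHL, TIL (black) and the 5 genes nearest to each; mut is the chr11-1 chr17-1 mutant, and lines only join the points of a gene. The profiles near CHL drop in all mutant arrays, with log2 differences of -3.06 to -4.63, and those near TIL are higher in all mutant arrays by 0.91 to 1.08.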

How the data were processed

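The values of the 6 ATH1 arrays are log2 expression levels, 1 per probe set, as deposited by the authors. Per the submitters' processing notes the tools were RMA and Partek, with no version or setting, and raw intensities were not used here. Background was not measured, so folds are of array signal, and having 6 arrays limits the precision. Of 22810 probe sets, 64 controls were left out. Of the 22746 tested, 13513 have 1 gene in the platform's annotation (13436 of them found in the TAIR10.1 gene table), 503 have several and 8730 have none, so many well-known genes of the lists could not be named. Coordinates are not printed, since no source used here names the build behind the probes.

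Mutant minus wild type was fitted by lmFit and eBayes of limma 3.58.1 (R 4.3.3, two-sided), with Benjamini-Hochberg adjustment over all 22746 probe sets and a threshold of 0.05. Python 3.11.15 and pandas 2.3.3 made the tables. The fit was tested on simulated data with 200 changed probe sets. The members, lists and tests were chosen with earlier results of these data known. The text names the lipocalins and mutated genes, up to 4 members past the threshold of each list (or the 2 largest differences), neighbours past the threshold and the nearest measured on each side, and the 5 nearest profiles of each lipocalin; the remaining members and GR1 were added after their values were seen. The lipocalin-like and the membrane lipid lists had 0 measured members. One epidermal marker was left out because its symbol belongs to another gene here. Alternatives were quantile normalization, median centring, leaving out the lowest 30% of probe sets, leaving out cross-hybridisation suffixes, a trended robust prior, a block on the replicate number, each array left out in turn and a threshold of 0.01.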

Additional observations from a re-analysis of the deposited data

How the results depend on the processing

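Over 10 alternatives each, the log2 difference of CHL stayed between -3.98 and -3.86 and that of TIL between 0.86 and 1.07. The gap between them stayed between -5.03 and -4.79. These ends came from leaving out 1 array, and no value moved by more than the spread between replicates. Not all of these alternatives could move the values. Leaving out the lowest probe sets, or those with cross-hybridisation suffixes, removes other probe sets only. The differences (-3.91 and 0.96) and the gap (-4.88) were therefore fixed there. Median centring could not change the gap, since it shifts both genes alike on an array. The number of probe sets past limma was 6511, and 5313 to 6332 with 1 array left out. Arrays sharing a replicate number did not deviate together (r of -0.30 to -0.17). That showed no pairing by number but cannot exclude one, since arrays of unlike number were not compared. With the replicate block 5682 probe sets passed limma, while the neighbours AT5G58110 and AT5G58030 no longer did (adjusted p of 0.0609 and 0.0915). At a threshold of 0.01, 0 photoprotection genes, 1 lipid peroxidation gene and 1 neighbouring gene passed. With 1 array left out, 1 to 4 neighbouring genes and 0 to 1 singlet oxygen response genes passed; the cause was not tested. Differences near 0 changed sign when 1 array was left out, with ranges of -0.0858 to 0.0315 for ChiC, -0.0506 to 0.0896 for HSA32, -0.0121 to 0.0654 for ATHSP22.0, -0.0695 to 0.0310 for AT4G01150, -0.0857 to 0.148 for AT1G52220, -0.0416 to 0.0937 for TROL and -0.0895 to 0.0502 for PGRL1B; PGRL1B also did so after quantile normalization (-0.0346). The 56 genes tested as list members, neighbours, nearest profiles, mesophyll markers, CHR17 or GR1 gave 722 values over the alternatives. Of these, 672 had the same sign and call as reported, 32 lost the call, 4 gained it and 14 changed sign. Under the threshold of 0.01, the trended robust prior, the replicate block and the left-out probe sets, only the call could change. The difference itself, and so its sign, was fixed there. Other list counts stayed within 1.5 times their value. Each lipocalin has 1 probe set, so a mean over probe sets could not be tried.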
